A study of Mus musculus with 6 samples.

Results

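The 35 genes described here are the enzymes and regulators through which cells make sterols and fatty acids under the control of the SREBP transcription factors. They were picked by gene symbol from knowledge of the pathway. The rule uses measured values only to take, for each gene, the probe set with the highest mean signal. The list was, however, drawn up with earlier results of these data known. All 35 were found among the 19938 genes that the arrays measured with a probe set of 1 gene symbol. A sterol arm of 23 genes runs from Hmgcs1 to Stard4 and a fatty acid arm of 12 genes from Srebf1 to Me1. The RNA came from primary microglia, macrophages that live in the brain. The source tissue was cerebral cortex, taken from mouse pups aged 2 days. Cultures ran for 10 days before the microglia were taken, and harvest followed 24 h after replating, with no further treatment named. The wild-type group had 3 arrays from C57BL/6J mice. The fosB-null group had 3 arrays from mice homozygous for the germline null allele fosBG, backcrossed to C57BL/6J to generation N20. In the labels each group has biological replicates 1, 2 and 3. Which animals went into a culture, and whether wild-type pups were littermates of the mutants, is not said there, so p-values measure the spread between these arrays, which may be technical.

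Same-numbered wild-type and fosB-null arrays held exactly the same value in 62.3%, 54.7% and 56.0% of the 23410 tested probe sets for numbers 1, 2 and 3, so a difference of 0.00 within such a pair is a tie and not a measurement of equality. Their deviations from the group means correlated at 0.62, 0.56 and 0.58, and same-numbered arrays are therefore called pairs here. Of 10 microglial markers, the 9 measured had mean signals from the 59.6th percentile of tested probe sets, for the purinergic receptor gene P2ry12, to the 99.8th, for Cd68, and astrocyte markers from the 18.0th, for Aqp4, to the 52.8th, for Aldh1l1. Some markers of other cells lay above P2ry12, namely the oligodendrocyte lineage genes Cnp, Mbp and Cspg4 at percentiles 80.9, 71.9 and 68.3 and the endothelial gene Flt1 at 80.1. No member lay among the 100 measured genes on either side of Fosb, and 1 lay elsewhere on the same chromosome. A stretch around Fosb could still differ after backcrossing. The window of 100 genes was a choice, and the length of that stretch was not measured here.

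SREBP proteins are made as membrane-bound precursors in the endoplasmic reticulum. When sterols are scarce the escort protein SCAP carries them to the Golgi, where proteases release the active factor. INSIG proteins hold SCAP back when sterols are plentiful. SREBP-2, from Srebf2, acts mainly on genes of sterol synthesis, and SREBP-1, from Srebf1, mainly on genes of fatty acid synthesis. Macrophages, microglia among them, take up cholesterol-rich debris and adjust this pathway to their sterol load.

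SREBPs bind the sterol regulatory element and usually act together with the factors NF-Y and Sp1, whose sites lie nearby. The following stretches are the 150 bases before the RefSeq gene start (build GRCm38.p6), 5′ to 3′ on the gene's strand, for the first enzyme of the sterol arm, for 3 later sterol enzymes with among the lowest p-values of the arm, for Insig1 and, as a contrast from the fatty acid arm, for Fasn. Capitals mark matches on either strand to the sterol element core TCACNCCAC, to the NF-Y motif CCAAT, to the Sp1 motif GGGCGG and to the E-box CACGTG, and the matches can overlap.
Hmgcs1, chr13:119690201-119690350, plus strand: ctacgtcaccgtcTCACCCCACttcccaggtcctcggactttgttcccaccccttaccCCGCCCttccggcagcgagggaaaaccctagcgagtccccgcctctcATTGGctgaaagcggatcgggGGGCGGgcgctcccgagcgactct
Hsd17b7, chr1:169969206-169969355, minus strand: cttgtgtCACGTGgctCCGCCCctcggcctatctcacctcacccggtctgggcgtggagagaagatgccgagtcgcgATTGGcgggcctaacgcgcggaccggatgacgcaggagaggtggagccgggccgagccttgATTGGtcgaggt
Sc5d, chr9:42264301-42264450, minus strand: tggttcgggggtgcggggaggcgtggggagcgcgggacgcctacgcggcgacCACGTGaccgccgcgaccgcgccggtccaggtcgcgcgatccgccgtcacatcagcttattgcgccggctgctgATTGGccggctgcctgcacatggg
Cyp51, chr5:4104698-4104847, minus strand: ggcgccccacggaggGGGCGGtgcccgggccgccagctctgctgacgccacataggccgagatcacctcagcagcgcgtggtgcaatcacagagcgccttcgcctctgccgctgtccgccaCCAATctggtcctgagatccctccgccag
Insig1, chr5:28071262-28071411, plus strand: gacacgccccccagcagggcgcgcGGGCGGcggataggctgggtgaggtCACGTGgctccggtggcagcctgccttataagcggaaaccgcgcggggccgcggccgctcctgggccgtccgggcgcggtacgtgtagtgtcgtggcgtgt
Fasn, chr11:120824548-120824697, minus strand: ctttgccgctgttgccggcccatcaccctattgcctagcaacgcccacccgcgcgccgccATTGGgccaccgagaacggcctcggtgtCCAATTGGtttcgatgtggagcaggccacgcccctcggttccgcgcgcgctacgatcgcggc

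Windows of 300 bases, 250 before to 50 after a start, were given for 19 of the 23 sterol arm genes and 9 of the 12 fatty acid arm genes, and a gene was counted where any of its windows held a match. The NF-Y motif was found for 18 of 19 sterol arm genes, or 94.7%, and 6 of 9 fatty acid arm genes, or 66.7%, against 41.1% of 27025 genes in the whole promoter table and 41.7% of the 15614 measured genes with a window. The Sp1 motif was found for 17 of 19 and 5 of 9, or 89.5% and 55.6%, against 38.2% of all and 52.9% of measured genes. The E-box was found for 5 of 19 and 1 of 9, against 8.09% of all and 9.50% of measured genes. The strict sterol element core was found for 1 sterol arm gene, Hmgcs1, for none of the 9 fatty acid arm genes and for 1.44% of all genes. These matches describe letters in a window and show no binding.

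None of the 35 genes passed the test between fosB-null and wild-type microglia. At a limma adjusted p under 0.05, 0 of 35 were called, against 1 probe set, or 0.00427%, of all 23410. At an unadjusted p under 0.05, 0 were called in either direction, against 0.453% of probe sets with a lower and 0.269% with a higher signal in fosB-null arrays. The groups overlapped in all 35, while 0.709% of all probe sets were wholly below and 0.410% wholly above wild-type. In all 35 members the range of the 3 wild-type arrays exceeded the difference of the group means, as it did in 22771 of the 23410 tested probe sets.

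All 17 enzymes of the sterol arm had a lower fosB-null than wild-type mean, with a median difference of -0.10 on the log2 scale. The rule does not split the arm this way, and the 3 sterol arm genes with a higher mean are all among the 6 others. The median difference of the 17 enzymes was -0.14 in pair 1 and -0.24 in pair 2, and 0.00 in pair 3. Over the whole sterol arm 20 of 23 genes had a lower fosB-null mean, and over the fatty acid arm 8 of 12, against 41.3% of all tested probe sets, a share that the many ties keep low. The median difference was -0.08 for the sterol arm, -0.01 for the fatty acid arm and 0.00 for all tested probe sets. With 1 array or both arrays of a number left out, the sterol arm median ranged from -0.16 to -0.03. That of the fatty acid arm ranged from -0.04 to 0.02. In pairs 1, 2 and 3 the sterol arm median was -0.04, -0.22 and 0.00. The fatty acid arm median was 0.00, -0.03 and 0.00, so the arms differed by -0.04, -0.19 and 0.00. These medians are descriptions, with no test over the members.

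**Figure D1:**
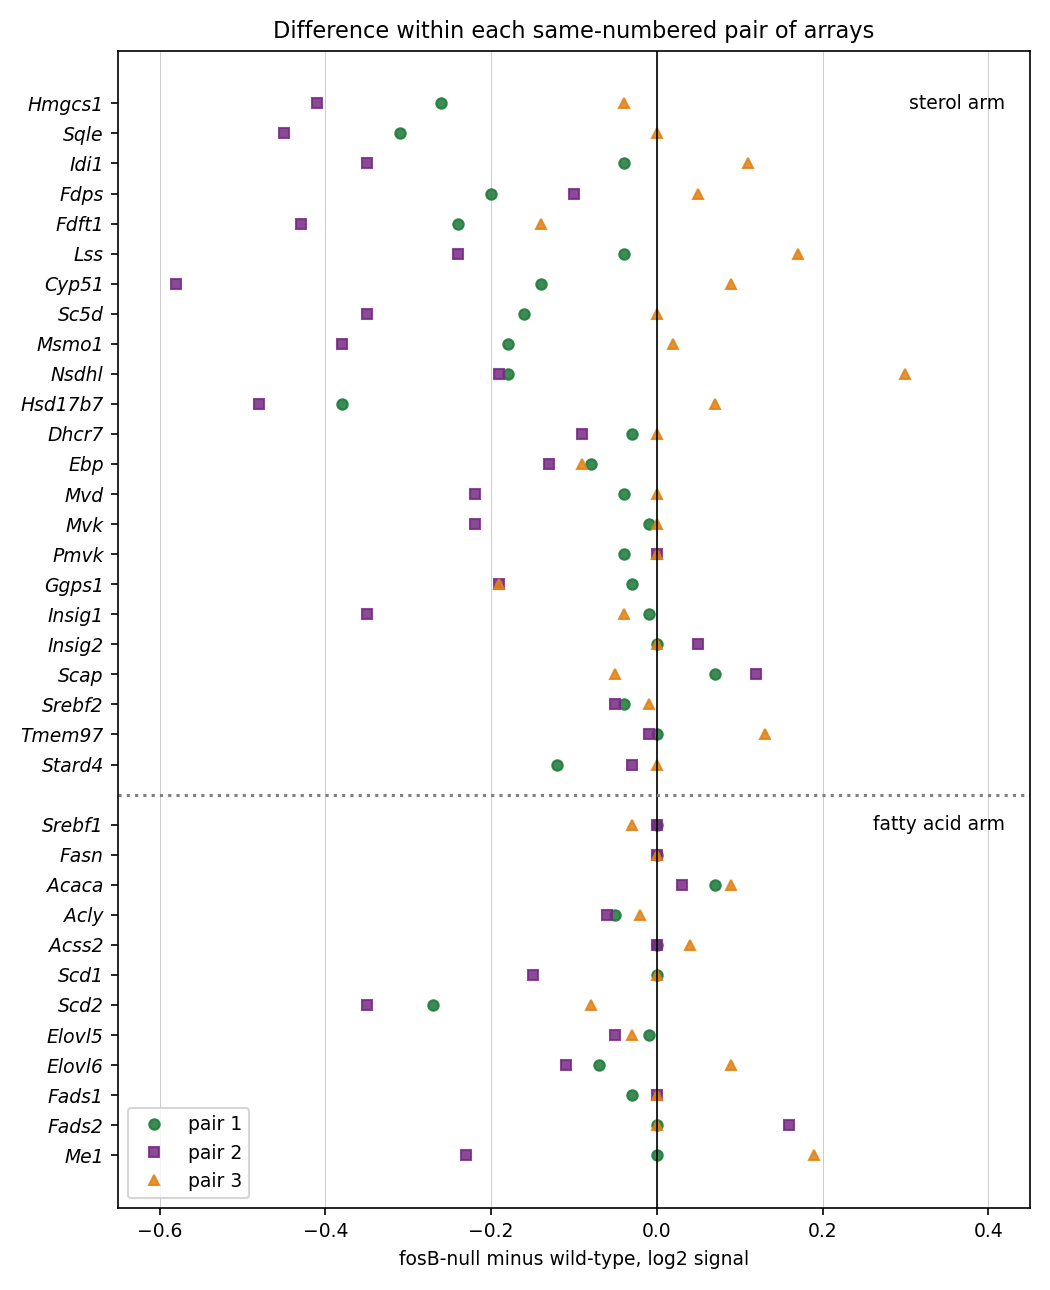
Difference in log2 signal, fosB-null minus wild-type, for each of the 35 genes (rows) in pair 1 (circles), pair 2 (squares) and pair 3 (triangles); points at 0 are mostly exact ties. In the sterol arm 20 of 23 genes lie below 0 in pair 1 and 20 in pair 2, but 7 in pair 3, and in the fatty acid arm Scd2 lies farthest to the left in pairs 1 and 2.

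Counted only where the values of a pair differ, 20 of 21 sterol arm genes were lower in fosB-null cells in pair 1, 20 of 22 in pair 2 and 7 of 15 in pair 3. The share of all differing probe sets that were lower was 52.7%, 48.5% and 71.4% in the same pairs, so the sterol arm stood above that background in pairs 1 and 2 and below it in pair 3. For the fatty acid arm the counts were 5 of 6, 6 of 8 and 4 of 8. Exact ties made up 2, 1 and 8 of the 23 sterol arm genes and 6, 4 and 4 of the 12 fatty acid arm genes. A lower value in all 3 pairs was found for 6 sterol and 3 fatty acid arm genes, or 9 of 35, against 5.57% of all probe sets. A higher value in all 3 was found for 1, Acaca, against 2.20%. Ties keep these background shares low, since 19 of 35 members but 3520 of 23410 probe sets differed in all 3 pairs. Of those that did, 9 of 19 members and 1305 of 3520 probe sets were lower in all 3.

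The pathway starts with the enzymes that make mevalonate and turn it into isoprenoid units, and all 7 of them had a lower fosB-null mean. Hmgcs1 encodes the cytosolic HMG-CoA synthase, which supplies the substrate of HMG-CoA reductase. Its log2 signal was 11.65, 11.40 and 11.38 in wild-type arrays 1, 2 and 3 and 11.39, 10.99 and 11.34 in fosB-null arrays. Array 2 was the lowest of the fosB-null group and array 1 the highest of the wild-type group, and the groups overlapped because fosB-null array 1 lay just above wild-type array 3. The means were 11.48 ± 0.15 and 11.24 ± 0.22 (SD, n = 3 each). They differed by -0.24, or 1.18-fold, with standard error 0.13 and 95% interval -0.55 to 0.08 (limma unadjusted p = 0.118, adjusted p = 1.00). Within pairs 1 and 2 the signal was 1.19-fold and 1.33-fold lower, and in pair 3 the difference was -0.04.

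The next enzymes had smaller differences. The kinases Mvk and Pmvk, which phosphorylate mevalonate in succession, differed by -0.08 and -0.01. Mvd, the decarboxylase that yields isopentenyl diphosphate, differed by -0.08, with -0.04 and -0.22 in pairs 1 and 2 and a tie in pair 3. Idi1, the isomerase of that product, differed by -0.09, and its pairs ran from -0.35 in pair 2 to 0.11 in pair 3. Its other probe set gave nearly the same pair values, -0.04, -0.37 and 0.11, although the 2 may share target sequence. Fdps, which makes farnesyl diphosphate, differed by -0.08. In its pairs the values were -0.20, -0.10 and 0.05. Ggps1, which leads from there to geranylgeranyl diphosphate and away from sterols, differed by -0.14 and was lower in every pair, by -0.03, -0.19 and -0.19.

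From squalene onward all 10 enzymes had a lower fosB-null mean, and all 10 were lower in pairs 1 and 2. Their median difference was -0.18, and -0.17, -0.37 and 0.01 in the pairs. Fdft1 encodes squalene synthase, the first enzyme committed to sterols. Its signal was 12.38, 12.05 and 11.89 in wild-type and 12.15, 11.62 and 11.75 in fosB-null arrays. The wild-type arrays spread over 0.49, more than the groups differed, and wild-type array 3 lay below fosB-null array 1. The difference was -0.27 (standard error 0.18, limma unadjusted p = 0.167), and the other Fdft1 probe set gave -0.32, with -0.33, -0.60 and -0.04 in the pairs against -0.24, -0.43 and -0.14.

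Sqle encodes squalene epoxidase, a rate-limiting oxygen-dependent step. Its signal was 11.01, 10.75 and 10.56 in wild-type and 10.71, 10.31 and 10.56 in fosB-null arrays, so pair 3 was tied. The difference was -0.25 (standard error 0.15, limma unadjusted p = 0.132). Lss, which closes squalene epoxide into lanosterol, differed by only -0.04, because -0.24 in pair 2 stood against 0.17 in pair 3.

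Cyp51 encodes the demethylase that acts on lanosterol. Its signal was 10.59, 10.60 and 10.27 in wild-type and 10.44, 10.02 and 10.36 in fosB-null arrays. Pair 2 differed by -0.58, the largest pair difference among the probe sets that stand for the 35 genes, while pair 3 differed by 0.09 the other way. The mean difference was -0.21 (standard error 0.14, limma unadjusted p = 0.177). Msmo1, the methylsterol oxidase of the next steps, differed by -0.18, with -0.18, -0.38 and 0.02 in the pairs. Nsdhl, the dehydrogenase that works with it, was lower by similar amounts in pairs 1 and 2, at -0.18 and -0.19, but higher by 0.30 in pair 3, which brought its mean difference to -0.02.

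Hsd17b7, the ketosterol reductase that completes the same demethylation, had the lowest unadjusted p of the 35. Its signal was 11.06, 10.90 and 10.71 in wild-type and 10.68, 10.41 and 10.78 in fosB-null arrays. Of the fosB-null arrays only array 3 lay above the lowest wild-type value. The means were 10.89 ± 0.17 and 10.63 ± 0.19 (SD, n = 3 each). They differed by -0.26, with standard error 0.13 and 95% interval -0.57 to 0.04 (limma unadjusted p = 0.0825, adjusted p = 1.00). The pairs differed by -0.38, -0.48 and 0.07.

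The last steps form cholesterol from its sterol precursors. Ebp, the isomerase, had a small but even difference, with 10.68, 10.73 and 10.59 in wild-type and 10.59, 10.60 and 10.50 in fosB-null arrays. Its pairs differed by -0.08, -0.13 and -0.09, and the mean difference was -0.10 with a standard error of 0.07. Sc5d, the desaturase, had a signal of 11.45, 11.41 and 11.18 in wild-type and 11.29, 11.05 and 11.18 in fosB-null arrays. Its difference was -0.17 (standard error 0.10, limma unadjusted p = 0.138), from -0.16 and -0.35 in pairs 1 and 2 and a tie in pair 3. Dhcr7, the reductase of the final step, differed by -0.04, with -0.03, -0.09 and a tie.

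**Figure D2:**
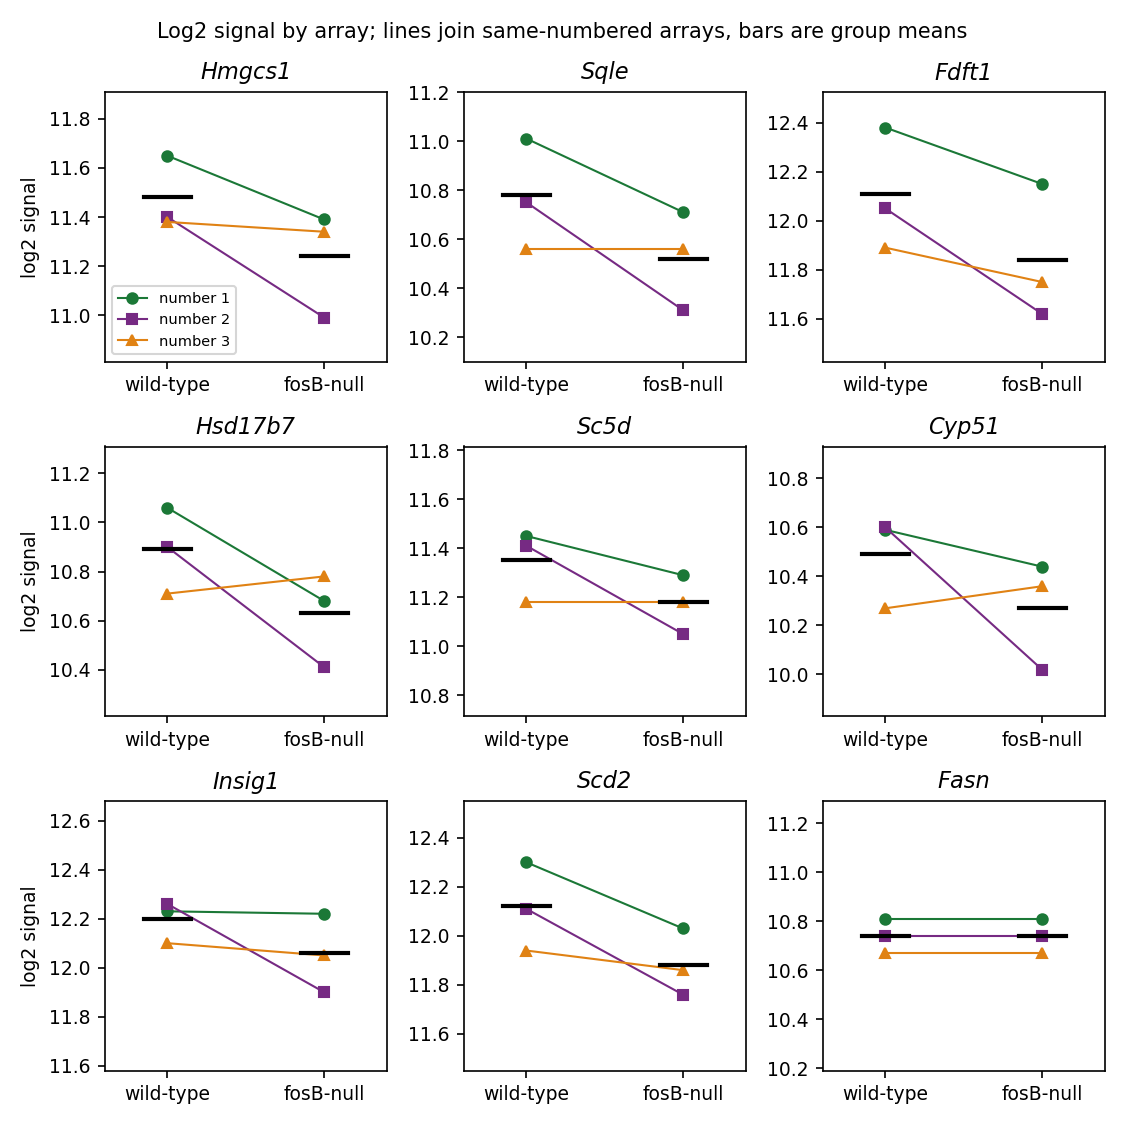
Log2 signal of 9 genes on each array, wild-type at left and fosB-null at right; lines join same-numbered arrays, black bars are group means, and every panel spans the same height. For 6 sterol enzymes, Insig1 and Scd2 the line of pair 2 slopes down. That of pair 3 rises for Hsd17b7 and Cyp51, is level for Sqle and Sc5d and slopes down less for the others. Fasn is tied in all 3 pairs.

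Among the 6 regulators and carriers of the sterol arm, 3 had a lower and 3 a higher fosB-null mean, with a median difference of -0.01. Srebf2, the gene of SREBP-2, was measured at 11.81, 11.84 and 11.74 in wild-type and 11.78, 11.79 and 11.72 in fosB-null arrays. All 6 values lay close together, and the pairs differed by -0.04, -0.05 and -0.01. Its mean difference was -0.03 with a 95% interval of -0.19 to 0.12. Scap, the escort, was measured at 10.40, 10.46 and 10.48 in wild-type and 10.47, 10.58 and 10.42 in fosB-null arrays, differing by 0.05 with an interval of -0.13 to 0.22. Its sign turned between pairs, at 0.07, 0.12 and -0.05.

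The 2 INSIG genes had unlike values in pair 2. Insig1, itself a well-known SREBP target, was measured at 12.23, 12.26 and 12.10 in wild-type and 12.22, 11.90 and 12.05 in fosB-null arrays. FosB-null array 2 stood alone at the low end, and the pairs differed by -0.01, -0.35 and -0.04. Insig2, whose level is less tied to sterols, was measured at 10.10, 10.22 and 9.96 in wild-type and 10.10, 10.28 and 9.96 in fosB-null arrays, with pairs 1 and 3 tied and pair 2 at 0.05. The mean differences were -0.14 with an interval of -0.37 to 0.10 for Insig1 and 0.02 with an interval of -0.24 to 0.27 for Insig2. The difference between the 2 genes was not tested. Stard4, a carrier of sterols between membranes, differed by -0.05, and Tmem97, a membrane protein of cholesterol transport, by 0.04. The second Tmem97 probe set differed by 0.00, with a tie in pair 1, -0.17 in pair 2 and 0.18 in pair 3, against a tie, -0.01 and 0.13 for the probe set with the higher mean.

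In the fatty acid arm the lowest p and the largest difference belonged to Scd2, a stearoyl-CoA desaturase that makes monounsaturated fatty acids and is the main form in brain. Its signal was 12.30, 12.11 and 11.94 in wild-type and 12.03, 11.76 and 11.86 in fosB-null arrays. FosB-null array 1 lay between the wild-type arrays, and the other 2 fosB-null arrays lay below all of them. The means were 12.12 ± 0.18 and 11.88 ± 0.14 (SD, n = 3 each). They differed by -0.24, or 1.18-fold, with standard error 0.12 and 95% interval -0.51 to 0.04 (limma unadjusted p = 0.0849, adjusted p = 1.00). The pairs differed by -0.27, -0.35 and -0.08, and Scd2 was thus lower in all 3. The paralogue Scd1, with a mean signal at the 23.4th percentile of tested probe sets, was measured at 6.70, 6.83 and 6.85 in wild-type and 6.70, 6.68 and 6.85 in fosB-null arrays, tied in pairs 1 and 3. Probe sets of such close paralogues may share sequence.

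The remaining 11 fatty acid arm genes differed by between -0.05 and 0.06. Srebf1 was measured at 9.98, 10.10 and 10.02 in wild-type and 9.98, 10.10 and 9.98 in fosB-null arrays, so only pair 3 differed. Fasn, the fatty acid synthase, was measured at 10.81, 10.74 and 10.67 in each group, tied in all 3 pairs. Acly, which supplies cytosolic acetyl-CoA to both arms, was measured at 11.10, 11.11 and 10.97 in wild-type and 11.05, 11.06 and 10.95 in fosB-null arrays. Its pairs differed by -0.05, -0.06 and -0.02, a small difference of 1 direction. Acaca, which makes malonyl-CoA for chain growth, had the opposite direction. It was measured at 9.51, 9.72 and 9.53 in wild-type and 9.57, 9.74 and 9.62 in fosB-null arrays, with pairs at 0.07, 0.03 and 0.09, and its second probe set gave a tie, 0.13 and 0.10.

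Elongases and front-end desaturases differed little. Elovl6, which extends palmitate, was measured at 8.69, 8.80 and 8.46 in wild-type and 8.62, 8.69 and 8.55 in fosB-null arrays, and its pairs turned sign. Fads2, the first desaturase of polyunsaturated fatty acids, was measured at 9.72, 9.53 and 9.62 in wild-type and 9.72, 9.69 and 9.62 in fosB-null arrays, so pair 2 alone differed, by 0.16. Fads1 and Elovl5, which act on the same fatty acids, differed by -0.01 and -0.03. Acss2, which activates acetate, differed by 0.01. Me1, the malic enzyme that supplies NADPH, differed by -0.01, from a tie, -0.23 and 0.19, and its second probe set gave a tie, -0.24 and 0.18.

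**Figure D3:**
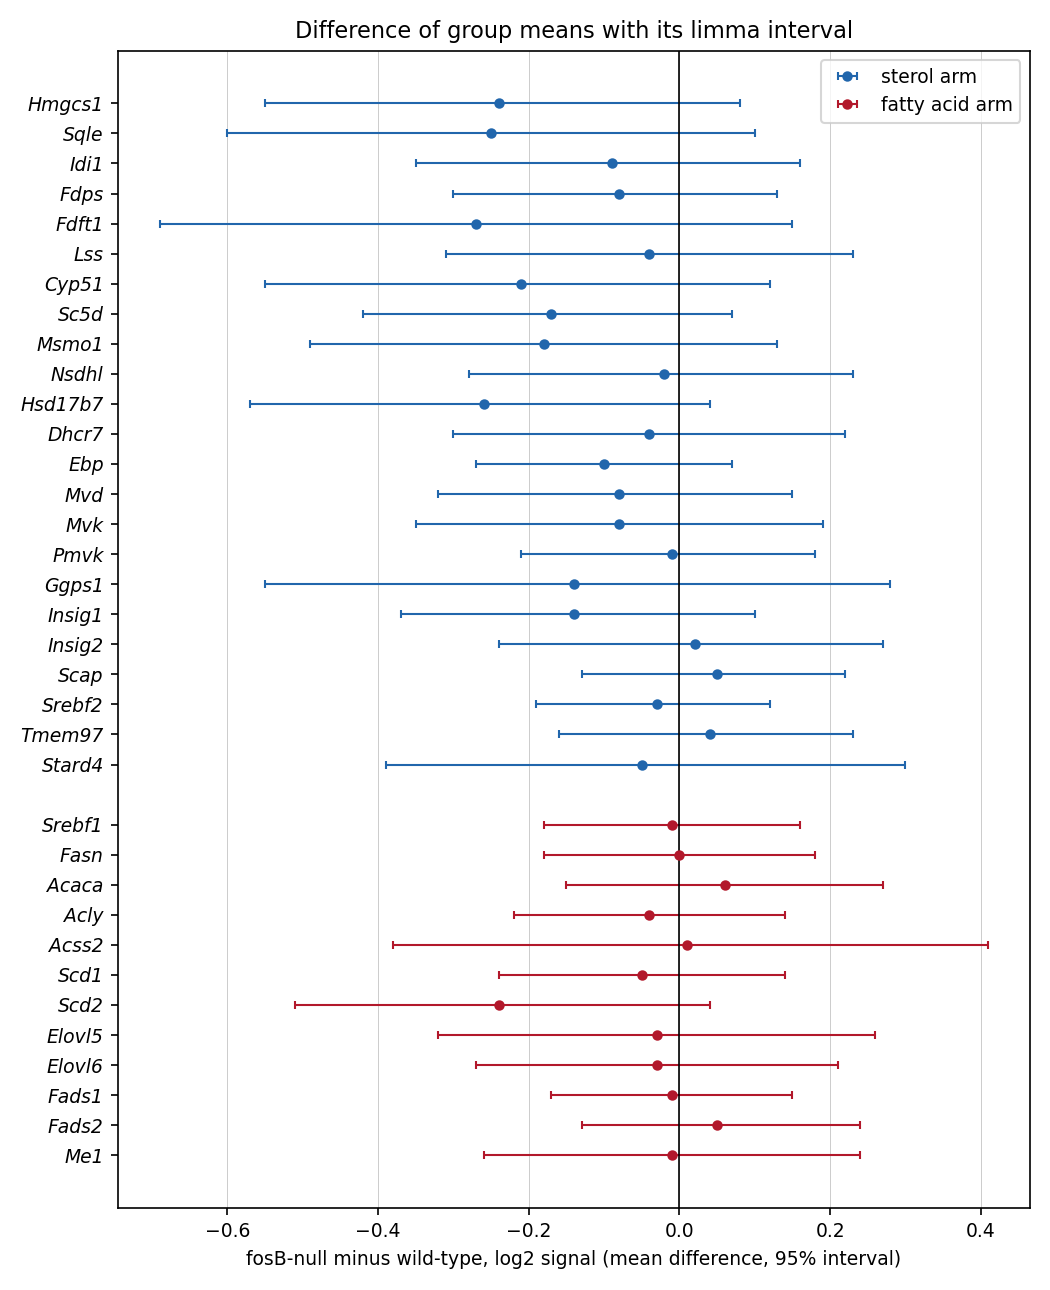
Difference of group means in log2 signal, fosB-null minus wild-type (points), with its 95% interval from the limma fit without a replicate block (bars), for the sterol arm (blue) and the fatty acid arm (red). Every interval includes 0; those of Hsd17b7, from -0.57 to 0.04, and Scd2, from -0.51 to 0.04, extend least above it among genes with a difference below -0.20.

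Taking the replicate number as a block removes the level that a pair shares. With it 0 members passed an adjusted p under 0.05, as did 0% of all probe sets, and the lowest adjusted p among the members was 0.674. An unadjusted p under 0.05 was then reached by 2 of the 35, both lower in fosB-null arrays, against 1.76% of all probe sets that were lower and 0.555% that were higher. They were Ebp (limma unadjusted p = 0.00932) and Acly (0.0302), the members with small but even pair differences. The number was also taken as a random block, whose correlation, estimated over all tested probe sets with their ties, was 0.96. With it 10 members were lower and 1 higher at an unadjusted p under 0.05, against 6.29% and 3.34% of all probe sets. Probe sets tied in all 3 pairs, 27.8% of all but 1 of the 35 members, cannot be called. They keep these shares and those with the replicate block low. The 10 were Hmgcs1, Sqle, Fdft1, Sc5d, Msmo1, Hsd17b7, Ebp, Ggps1, Scd2 and Acly, and the 1 was Acaca. None passed by adjusted p, the lowest being 0.111 for Ebp, while 0.201% of all probe sets did. The correlation of 0.96 was applied to every probe set, tied or not, so the random block p-values rest on it. Hsd17b7, whose pairs differed in sign, had a limma unadjusted p of 0.218 with the replicate block and 0.0377 with the random block.

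The sterol arm also varied between arrays of 1 genotype. With each gene centred on its mean over the 6 arrays, the 17 sterol enzymes averaged 0.16, 0.14 and -0.10 on wild-type arrays 1, 2 and 3 and 0.02, -0.14 and -0.08 on fosB-null arrays. Wild-type array 3 thus lay within the range of the fosB-null arrays. It held the lowest wild-type value in 21 of 23 sterol arm genes, or 91.3%, and in 6 of 12 fatty acid arm genes, against 44.1% of all tested probe sets. FosB-null array 2 held the lowest fosB-null value in 10 of 23 and 2 of 12, against 13.1%. The fatty acid arm averaged 0.00, 0.09 and -0.06 on the wild-type and -0.03, 0.03 and -0.04 on the fosB-null arrays.

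Genes of cell division and some of the oligodendrocyte lineage also differed by pair. Of 23 genes of cell division, 22 were measured and all 22 had a higher fosB-null mean, with a median difference of 0.54. The share of all tested probe sets with a higher mean was 30.9%, which ties keep low, as 6510 of the 23410 had a difference of 0. By limma 5 of them had an unadjusted p under 0.05, against the 0.269% given above, and 0 an adjusted p under 0.05. With the replicate block 0 of the 22 had an unadjusted p under 0.05. With the random block 21 did, all but Pcna, against 3.34% of all probe sets, a share that ties keep low, again with 0 by adjusted p. Their mean difference was 0.77 and 0.90 in pairs 1 and 2 and -0.01 in pair 3, the pairs in which the sterol enzymes averaged -0.14, -0.28 and 0.02. Their mean level ranged from 8.78 to 9.56 on wild-type and from 9.55 to 10.22 on fosB-null arrays. Of 10 measured oligodendrocyte lineage markers, a cell type that makes much cholesterol, 5 had a lower fosB-null mean, 1 a higher one and 4 were tied in all pairs. Their mean differed by -0.12, -0.08 and 0.01 in the pairs, while their median was 0.00 in each pair. Their mean level ranged from 8.11 to 8.34 on wild-type and from 8.10 to 8.26 on fosB-null arrays. Mbp, the myelin basic protein gene, differed by -0.32, -0.24 and -0.06, with groups that did not overlap. Cspg4, of their progenitors, differed by -0.36, -0.43 and 0.20, but Pdgfra, also of progenitors, was the 1 with a higher mean. It differed by 0.07 in pair 1 and was tied in pairs 2 and 3. Mag and Mog differed mainly in pair 1, by -0.46 and -0.15, and Olig2 only in pair 2, by -0.13. Olig1, Sox10, Mobp and Cnp were tied in every pair. Astrocyte, neuronal and endothelial markers had a median difference of 0.00, and fibroblast and mural cell markers 0.01. Microglial markers had a median difference of 0.02, and 8 of 9 had a higher fosB-null mean, against the 30.9% given above. The part of cell division or of other cells in the sterol values was not tested. In such bulk cultures fewer cells of a type and less RNA per cell cannot be told apart.

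**Figure D4:**
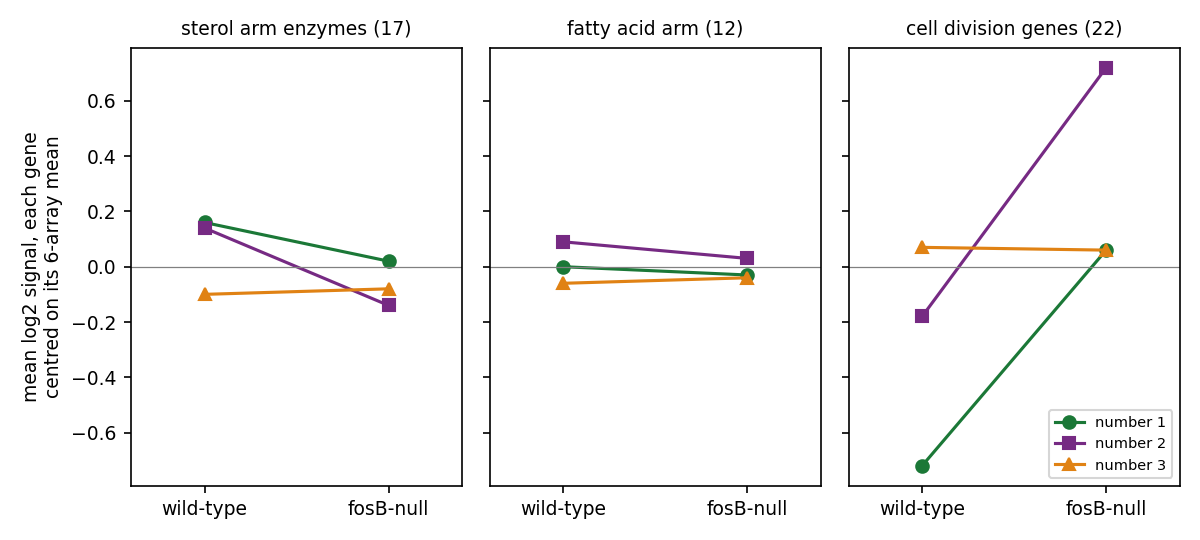
Mean log2 signal of the 17 sterol enzymes, the 12 fatty acid arm genes and 22 cell division genes on each array, each gene centred on its 6-array mean; lines join same-numbered arrays and the panels share a scale. The sterol enzymes go from 0.14 to -0.14 and the cell division genes from -0.18 to 0.72 in pair 2, and pair 3 is nearly level in all panels.

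Other genes of the pathway, taken from 3 lists that hold no member, had median differences of -0.01, -0.03 and -0.02. Of 11 measured genes that process or turn over SREBPs or bind beside them, 0 passed at an adjusted or an unadjusted p under 0.05 by limma, and the differences ran from -0.05 for Sp1 to 0.04 for Mbtps1, the Golgi protease that makes the first cut. Erlin2, which binds INSIG and SCAP, differed by -0.03, and Nfya, a subunit of NF-Y, by -0.02. Of 16 measured genes of fatty acid, glycerolipid and NADPH supply, 0 passed at either threshold. The lowest p-values there belonged to the isocitrate dehydrogenase gene Idh1, at -0.10 and lower in all 3 pairs, the phosphatidate phosphatase gene Lpin1 at -0.08, Acsl4, which activates arachidonate, at 0.09 and the acyltransferase gene Gpam at -0.06. Idh1 alone of the 16 reached an unadjusted limma p under 0.05 with the replicate block, at 0.0139, and with the random block, at 0.00170, with adjusted p of 0.674 and 0.161.

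Of 9 other sterol and isoprenoid enzymes, 0 passed at either threshold, but 1 had groups that did not overlap, Lbr, which was higher, as were 0.410% of all probe sets. Lbr encodes the lamin B receptor, a protein of the inner nuclear membrane that also has sterol reductase activity. Its signal was 9.51, 9.50 and 9.53 in wild-type and 9.63, 10.03 and 9.66 in fosB-null arrays, all fosB-null values lying above all wild-type values. The difference was 0.26 (standard error 0.12, limma unadjusted p = 0.0575, adjusted p = 1.00), and 0.12, 0.53 and 0.14 in the pairs. Its unadjusted limma p was 0.149 with the replicate block and 0.0155 with the random block (adjusted p = 0.397). Tm7sf2, which encodes the other sterol reductase of that step, differed by -0.10, tied in pairs 1 and 3 and at -0.30 in pair 2. In pair 2 these enzymes of 1 reaction thus had opposite signs, a contrast that was not tested. Cyb5r3, an electron donor of sterol oxidation, and the ferredoxin gene Fdx1 differed by -0.03 each.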

How the data were processed

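Total RNA (100 ng) of 6 cultures, 3 wild-type and 3 fosB-null, was hybridised to Affymetrix whole-transcript arrays. The deposited values are log2 signals, 1 per probe set and array. Per the submitters' processing notes, the authors used the program Affymetrix Expression Console. The sources used here give no version, summary method or normalization for it. No label names the scale. Values between 1.73 and 14.6, and medians per array between 7.76 and 7.92, fit log2. No detection calls were used, and precision is limited by the number of arrays.

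The platform annotation gave 1 symbol to 21789 of 35557 probe sets, several to 1621 and none to 12147. The 23410 with a symbol were tested. A gene was read from its single-symbol probe set with the highest mean. Symbols were updated through a RefSeq table of GRCm38.p6, which also gave gene order. Promoters were RefSeq windows of that build.

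The fosB-null group was set against the wild-type group by limma 3.58.1 under R 4.3.3 (lmFit, eBayes, two-sided, no block), with Benjamini-Hochberg adjustment over all tested probe sets. The fit was run on simulated arrays with independent noise and known changes larger than the difference of any member. These arrays lacked the ties and the pairing of the real ones, so the run does not show how the fit behaves on them. A negative difference means a lower fosB-null value. By rule, values per array were given for the 6 genes of each arm with the lowest p, for 5 regulators and for the highest mean of each arm, and up to 4 genes by lowest p were named from each of 3 lists of other pathway genes. Ebp and Fasn were given per array outside this rule, after their values were seen, and the named marker genes were chosen likewise. The members and lists were chosen with earlier results of these data known. No rule set the splits of the sterol arm into enzymes and other genes and of the enzymes at squalene. The pairing comes from the values, since the deviations of every same-numbered pair correlated above 0.1, and no label says what a number stands for.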

Additional observations from a re-analysis of the deposited data

How the results depend on the processing

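No member passed by adjusted p in any of the 7 other analyses of all 6 arrays, among them the filter on the dimmest 40%, or in the 6 that left out 1 array. With the replicate block 2 members reached an unadjusted p under 0.05 and with the random replicate block 11, against 0 with quantile normalization, median centring, the intensity trend and robust moderation. This count was not made under the filter. With single arrays or both arrays of a number left out the count ranged from 0 to 4, being 4 when wild-type array 3 was left out, 2 for fosB-null array 1, 1 for fosB-null array 3 and 2 for both arrays of number 3. Leaving out both arrays of a number was chosen after the data were seen. Among the other pathway genes the count was 1 with quantile normalization, median centring, the intensity trend and the replicate block, and 2 with the random replicate block. The sterol arm median ranged from -0.16 to -0.03 with arrays left out, and the arm contrast from -0.13 to -0.03. The value nearest 0 came without both arrays of number 2 in each case. The fatty acid arm median was -0.04 with median centring, -0.03 over the members that differ in all pairs, and -0.04 to 0.02 with arrays left out, so its sign is not settled. Median centring raised the members lower in all 3 pairs from 9 to 20, since it turns ties into small differences. It moved the median of all probe sets to -0.02. The mean difference turned sign in at least 1 of these analyses in 10 of 23 sterol and 6 of 12 fatty acid arm genes. That of Fasn, 0.00 over all arrays, ran from -0.03 to 0.03.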
